A study of Mus musculus with 2 samples.

Results

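The regions described here are 9587 regions of chromosomes 1 to 19 that lie in densely packed neighbourhoods of the deposited H3K9me2 table. A region was a member if at least 12 other regions of the table on the same chromosome had their midpoint within 250 kb of its own midpoint, on either side. The members made up 41.1% of the 23339 regions of chromosomes 1 to 19, and the whole table holds 23946 regions. The rule used positions only, so the level of the mark was free to differ between members and the other 13752 regions.

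The assay was ChIP-seq, in which chromatin bound by an antibody (here ab1220, against H3K9me2) is sequenced, in mouse embryonic stem (ES) cells of the line MC1-ZE7, strain MC1 (129S6/SvEvTac). The cells grew without feeders on gelatin in serum with leukemia inhibitory factor and were sorted by the fluorescence of Emerald, a green fluorescent protein. One library came from Emerald-negative cells (Em-) and the other from the high fraction of Emerald-positive cells (Em+), and the series describes these as Zscan4-negative and Zscan4-positive. No other allele or agent is named for either population. The labels do not say what drives Emerald, whether the line is a single clone, or how many cultures or sorts went into each library. A protein of the sorted cells is not measured by ChIP-seq of a histone mark, so the sort itself could not be checked here.

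H3K9me2 is dimethylation of lysine 9 on histone H3. In mammals it is placed mainly by the paired enzymes G9a (Ehmt2) and GLP (Ehmt1), and it is known to cover broad domains of silent chromatin, many of them gene-poor, late-replicating and near the nuclear lamina, while active promoters lack it. Zscan4 genes encode zinc finger proteins that ES cells express in short bursts, and these bursts have been linked to transient changes of heterochromatin. Stretches of the genome rich in genes are known to hold many promoters and other regulatory sites close together, but no source used here says what the regions of this table were called from.

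Each library has 1 sample, so no test between populations was possible and no p-value is given. Values are reads recovered from the deposited signal in a 10 kb window around each region, or scaled reads, which are reads multiplied by the scaling constant of the library (1.12 in Em+ and 0.902 in Em- cells). Intervals in parentheses are 95% counting intervals: they leave out any variation from culture to culture, from sort to sort or between precipitations. Over the autosomal windows there were 216082 reads of the Em+ and 266159 of the Em- library, of which members held 63328 and 78267. A read that lies in overlapping windows counts once in each, so intervals pooled over such regions are too narrow.

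H3K9me2 was lower at members than at other regions in both libraries. The median member had 5 reads (quartiles 3 and 8) in Em+ and 6 reads (quartiles 4 and 10) in Em- cells. The median of the other regions was 9 reads (quartiles 5 and 14) and 11 reads (quartiles 6 and 18). In scaled reads, the median was 5.61 against 10.1 in Em+ and 5.41 against 9.93 in Em- cells. On the log2 scale with a pseudocount of 1.80 scaled reads, the medians differed by -0.68 and -0.70. The upper quartile of the members thus lay below the median of the other regions in both libraries, although the ranges of single regions overlapped widely. Regions of 1 library are not replicates and neighbours share chromatin, so this difference is a description and carries no test. As no input library was used here, less of the mark and poorer recovery of reads from such stretches cannot be told apart.

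The extremes of the distribution were also unevenly divided. Of the members, 310 (3.23%) were in the top 10% of autosomal regions by scaled reads over both libraries (above 19.4), against 2012 (14.6%) of the other regions. In the bottom 10% (up to 2.69) there were 1523 members (15.9%) and 839 other regions (6.10%). No read was found at 288 members (3.00%) in Em+ and at 160 members (1.67%) in Em- cells. Among other regions this was so at 148 (1.08%) and 95 (0.691%). A count of 0 allows up to 3 reads in a window, so such windows are not shown to lack the mark.

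The level followed the number of neighbours over the whole range and showed no step at the threshold. Regions with no neighbour within 250 kb (636 regions) had a median of 15 reads in Em+ and 18 in Em- cells. With 4 to 7 neighbours (5174 regions) the medians were 9 and 11, and with 8 to 11 (4831 regions) they were 7 and 8. Within the members, those with 12 to 15 neighbours (3729 regions) had 6 and 7 reads, and those with 16 to 19 (2670 regions) had 5 and 6. At 24 to 27 neighbours (986 regions) the medians were 4 and 5, and at 32 to 40 neighbours (272 regions) they were again 4 and 5. Just outside the threshold, the 1196 regions with 11 neighbours had medians of 6 and 8 reads, and just inside it the 1113 regions with 12 neighbours had 6 and 7. The gradient was therefore steepest among sparse regions and flattened above about 20 neighbours, where 1 read is a large part of the level. Spearman's rho between the number of neighbours and the reads of both libraries was -0.43 over 23339 regions and -0.21 over the 9587 members. These are correlations across regions that share libraries and neighbours.

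**Figure D1:**
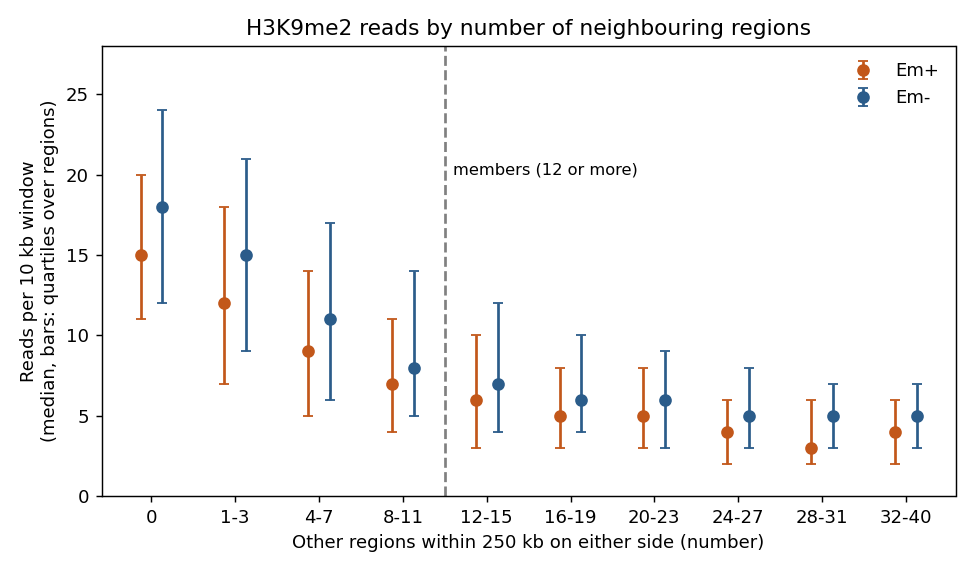
Reads per 10 kb window (y axis, median with quartiles over regions) by the number of other regions within 250 kb (x axis) in the Em+ and Em- libraries. Medians run from 15 and 18 reads with no neighbour to 4 and 5 reads with 32 to 40 neighbours, with no step at the dashed line that marks the threshold.

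Neighbours at short and at long range both went with a lower level. Among regions with 0 to 5 neighbours between 25 and 250 kb away, the median over both libraries was 14.4 scaled reads where no region lay within 25 kb and 7.19 where 3 or more did. Among regions with 18 or more neighbours at the longer range it was 6.07 and 4.50. Read the other way, among regions with none within 25 kb the median was 14.4 with 0 to 5 neighbours at the longer range, 10.2 with 6 to 11, 7.81 with 12 to 17 and 6.07 with 18 or more. The lowest level was thus found where regions were close together at both scales (1429 regions).

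Members had fewer reads than other regions on each of the 19 chromosomes in both libraries. Chromosome 8, whose regions carry the most reads of any autosome, showed the widest gap: 7 reads at its 852 members against 16 at its other regions in Em+ cells, and 8 against 20 in Em- cells. Chromosome 11, where 56.2% of regions were members, had 5 against 7 reads and 5 against 9. On chromosome 7 the medians were 4 against 9 and 5 against 11, and on chromosome 10 they were the same 4 medians. Over all regions of single chromosomes, rho between neighbours and reads ran from -0.29 (chromosome 13) to -0.54 (chromosome 8). Among members alone it ran from -0.47 (chromosome 10) to 0.018 (chromosome 12) and was also near 0 on chromosomes 2 (-0.0093) and 14 (0.014), so the gradient within members was not shared by every chromosome. The share of regions that were members ranged from 22.8% on chromosome 1 to 59.3% on chromosome 17, so chromosomes contributed unequally. Members' medians nevertheless lay in the narrow range of 4 to 7 reads in Em+ and 5 to 8 in Em- cells, while those of other regions ranged from 7 to 16 and from 9 to 20.

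**Figure D2:**
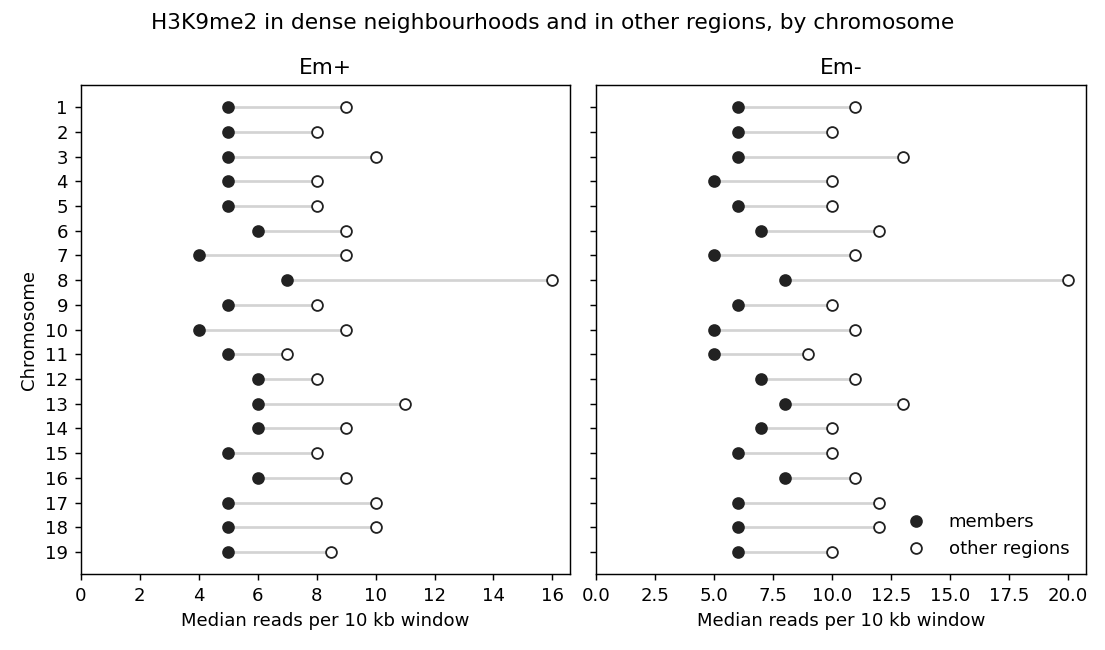
Median reads per 10 kb window (x axis) of members (filled) and other regions (open) on chromosomes 1 to 19 (y axis), in the Em+ library at left and the Em- library at right. The filled point lies left of the open point on all 19 chromosomes in both libraries.

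The width of the regions did not separate members from the rest. The median width was 1115 bp for members and 1108 bp for other regions. Among the narrowest 25% of regions (up to 629 bp) the medians were 5 reads at members and 9 at other regions in Em+ cells, and 6 and 11 in Em- cells. Among the widest 25% they were 5 and 8, and 6 and 10. Spacing differed by construction: the nearest region lay a median of 7388 bp from a member and 18268 bp from another region. Windows of 5937 members (61.9%) and of 4979 other regions (36.2%) overlapped that of the nearest region.

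Members fell into 465 neighbourhoods, defined as runs of members whose successive midpoints were at most 250 kb apart. Of these, 340 held at least 10 members, 9090 members in all, with a median span of 406 kb. In 308 of the 340 the median level lay below that of the other regions (10.1 scaled reads over both libraries), and in 32 it lay above. All 32 neighbourhoods of 50 or more members were below, and those above held at most 33 members. Neighbourhoods above were on chromosome 8 in 10 cases, a chromosome that held 27 of the 340. The level compared was that of all autosomes, and other regions of chromosome 8 themselves had higher medians (16 reads in Em+ and 20 in Em- cells). Differences between the means of the 465 neighbourhoods, 24 of which have 1 member, accounted for 27.7% of the variance of log2 level among members. Counting error enters both this share and the remainder, and reads shared by overlapping windows raise the share. It is therefore not a measure of real differences alone.

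The 10 neighbourhoods with the most members had between 94 and 185 regions. The one with the most, on chromosome 4 (131573863 to 136043238; positions here and below are mm9, as deposited), held 185 members over 4469 kb. Its median member had 4 reads in each library, and its highest member had 12 reads in Em+ and 25 in Em- cells. A neighbourhood of 173 members on chromosome 7 (27940241 to 31435122) had a median of 5 reads in each library, and one of 156 on chromosome 8 (72148287 to 75247455) had 6 and 7. The 109 members on chromosome 10 (79017381 to 81091090) had medians of 2 and 3 reads, which was also the lowest level of all 340 neighbourhoods by scaled reads (2.47). The other 6 lay on chromosomes 3, 7, 8, 11 and 19, and their medians ran from 4 to 6 reads in Em+ and from 4 to 8 in Em- cells. All 10 were thus below the medians of the other regions in both libraries.

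The remaining neighbourhoods with the lowest levels were small. They lay on chromosome 12 (85493711 to 85792888, 14 members), chromosome 5 (124708427 to 125079429, 18 members), chromosome 17 (34973065 to 35379279, 27 members) and chromosome 10 (7319979 to 7532484, 15 members). Their medians were 2 to 3 reads in Em+ and 3 to 4 in Em- cells, so 1 read separated them, which this depth does not resolve. The 5 members with the most neighbours, 39 or 40, lay on chromosomes 8 and 10 and had 4 to 12 reads in Em+ and 3 to 11 in Em- cells.

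The level outside neighbourhoods was higher with distance from the nearest member. Other regions within 50 kb of a member (558 regions) had medians of 6 reads in Em+ and 7 in Em- cells. Between 100 and 250 kb (1834 regions) the medians were 7 and 9. They were 9 and 11 both between 250 and 500 kb and between 500 and 1000 kb. Beyond 1000 kb (7345 regions) they were 10 and 12. Inside the 42 neighbourhoods that spanned 1000 kb or more, members within 100 kb of an edge had 5 and 6 reads, and members more than 500 kb from an edge had 4 and 5. The medians thus differed more between the distance classes of other regions than between members at the edge and in the interior of long neighbourhoods. The number of neighbours changed along with distance, from a median of 22 in the innermost class to 5 beyond 1000 kb, so distance and density were not separated here.

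**Figure D3:**
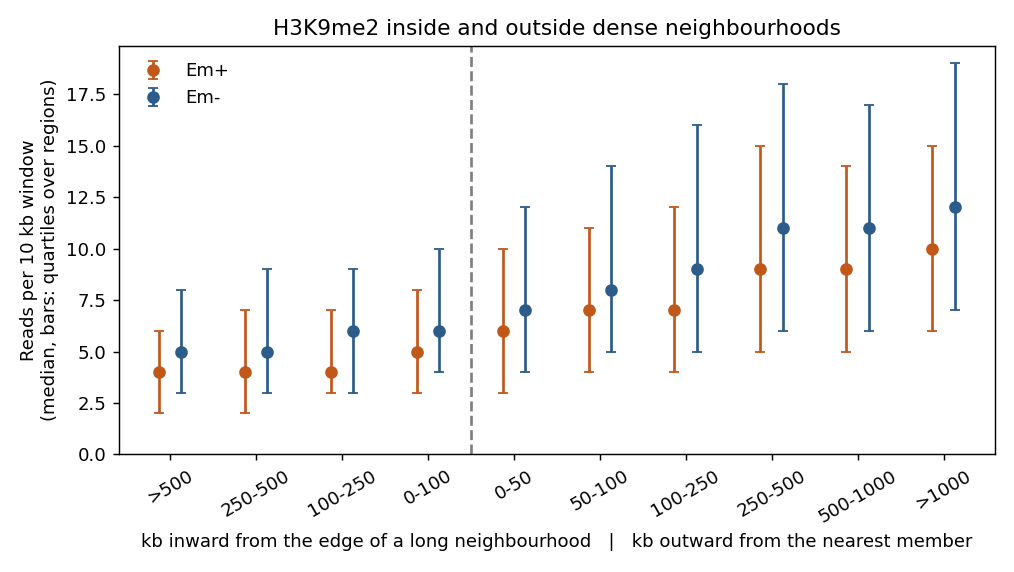
Reads per 10 kb window (y axis, median with quartiles over regions) in both libraries. Left of the dashed line are members by distance inward from the edge of neighbourhoods of 1000 kb or more. At right are other regions by distance from the nearest member of any neighbourhood. Medians run from 4 and 5 reads more than 500 kb inside to 10 and 12 reads more than 1000 kb from the nearest member.

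A neighbourhood on chromosome 4 (146605257 to 147468397) went against the low level of members. Its 33 members had a median of 64 reads in Em+ and 76 in Em- cells, and by scaled reads its median was 12.6 times that of all members. It held 21 of the 36 members with over 100 reads in both libraries together. The high level stopped within the neighbourhood, a split described after the values were seen. The first 23 members (146605257 to 147184508) had 35 to 147 reads in Em+ and 47 to 189 in Em- cells. The next member lay 39.2 kb further on, and from there the last 10 members (147221910 to 147468397) had 2 to 11 and 2 to 17 reads. The ranges of these stretches did not overlap in either library, while members of the first stretch had 12 to 19 neighbours and those of the second 12 to 15. Extra copies of a sequence, the mapping of reads to repeats and the mark cannot be told apart in such a stretch, because neither an input nor the handling of duplicates is known here.

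**Figure D4:**
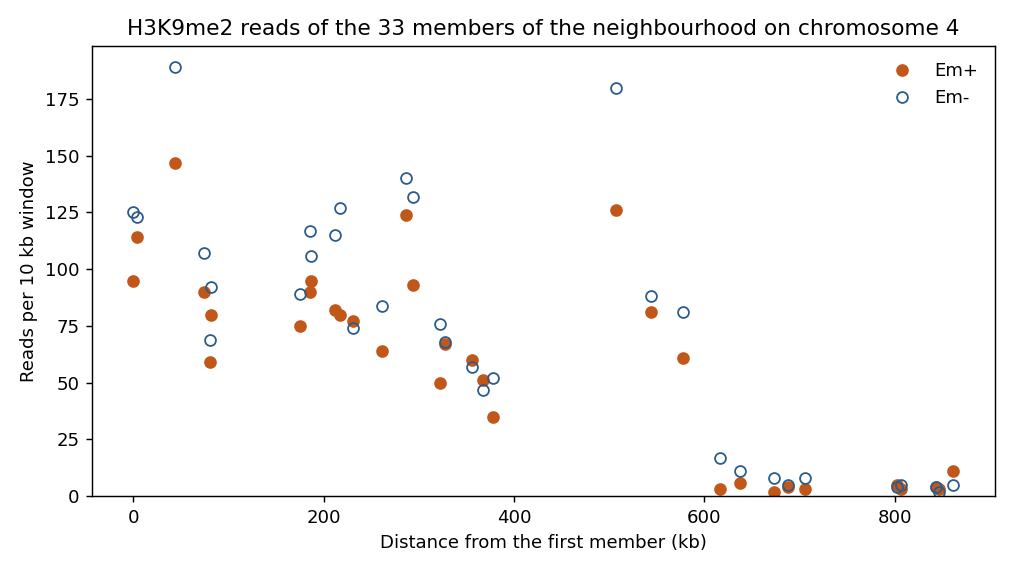
Reads per 10 kb window (y axis) of the 33 members of the chromosome 4 neighbourhood by distance from its first member (x axis, kb), in the Em+ (filled) and Em- (open) libraries. The first 23 members have 35 to 189 reads and the last 10 have 2 to 17.

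The next highest neighbourhoods were far lower. They lay on chromosome 5 (27018042 to 27249130, 13 members, medians of 21 and 22 reads), chromosome 8 (91359270 to 91681844, 14 members, 17 and 25), chromosome 13 (74527003 to 74755164, 11 members, 19 and 22) and chromosome 8 (4274986 to 4587620, 10 members, 13.5 and 18). Other regions of chromosome 8 had medians of 16 reads in Em+ and 20 in Em- cells, so its neighbourhood from 4274986 lay below them. On chromosome 5 each of the 13 members had at least 15 reads in Em+ cells, so that level was shared throughout. By contrast, the 4 most-read members of all lay together at the start of chromosome 11 (3023741 to 3094077), with 190 to 440 reads in Em+ and 239 to 571 in Em- cells. The other 18 members of that neighbourhood had 0 to 7 and 2 to 8 reads. The fifth most-read member, on chromosome 4 (146649033 to 146650398), had 147 and 189 reads and belongs to the first stretch above. Single members over 100 reads were thus concentrated: 23 lay on chromosome 4, 4 each on chromosomes 8, 11 and 13, and 1 on chromosome 2.

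The H3K9me2 signal was lower at the middle of members than in their flanks, as at other regions, from a lower base. Without an input library, less of the mark and poorer recovery of reads at the centre cannot be told apart. Within 400 bp of the centre the signal per 200 bp bin averaged 0.0911 in Em+ and 0.0907 in Em- cells at members, against 0.164 and 0.158 at other regions. Between 4000 and 5000 bp it averaged 0.163 and 0.161 at members, and 0.274 and 0.275 at other regions. The signal of the members' flanks was thus close to that of the other regions' centres. The ratio of the central 10 bins (within 1000 bp) to the outer 40 bins was 0.679 (0.664 to 0.694) in Em+ and 0.671 (0.657 to 0.684) in Em- cells for members. For other regions it was 0.702 (0.692 to 0.712) and 0.664 (0.655 to 0.672). In Em- cells the depths of members and other regions differed by 0.015 on the log2 scale (-0.020 to 0.049). In Em+ cells the ratio of members was lower by -0.048 (-0.086 to -0.010).

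The Em+ library had a slightly shallower centre at other regions, and at members the interval of this difference held 0. On the log2 scale, the centre-to-flank ratio of Em+ minus that of Em- was 0.017 (-0.026 to 0.060) at members and 0.080 (0.052 to 0.11) at other regions. The difference between these was -0.063 (-0.11 to -0.012). It was -0.054 (-0.11 to -1.8e-05) without regions over 100 reads and -0.075 (-0.13 to -0.016) over regions at least 10 kb apart. The difference between the libraries was 0.088 (-0.025 to 0.20) at regions with 11 neighbours and 0.0027 (-0.12 to 0.12) at those with 12. These intervals are too wide to show or exclude a step at the threshold. By wider density classes, the difference was 0.17 (0.076 to 0.27) with no neighbour, 0.096 (0.044 to 0.15) with 1 to 3 and 0.042 (-0.0051 to 0.089) with 4 to 7. With 8 to 11 neighbours it was 0.079 (0.029 to 0.13). For members it was 0.039 (-0.026 to 0.10) with 12 to 15 and -0.00012 (-0.078 to 0.078) with 16 to 19. These intervals cover counting error only, and 1 library per population cannot separate populations from preparations. In the zone from 400 to 1000 bp, where other regions had a log2 ratio of 0.099 (0.067 to 0.13), members had 0.031 (-0.019 to 0.080).

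**Figure D5:**
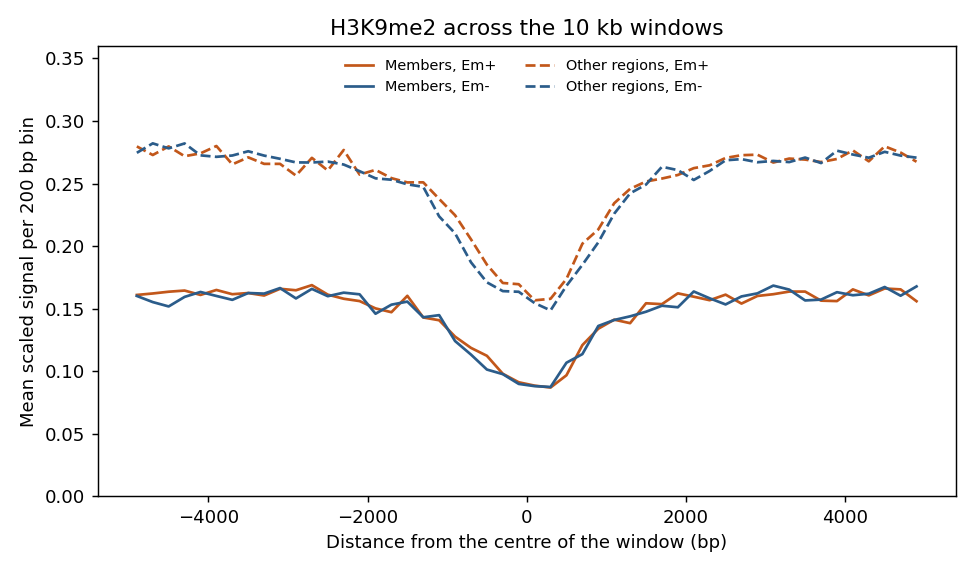
Mean scaled H3K9me2 signal per 200 bp bin (y axis) by distance from the window centre (x axis, bp) for members (solid) and other regions (dashed) in both libraries. Members lie near 0.16 in the flanks and 0.09 at the centre, other regions near 0.27 and 0.16, and the libraries part visibly near the centre of the other regions.

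Between the populations, the scaled level of members was nearly equal. Pooled over members, the log2 ratio of Em+ to Em- cells was 0.0077 (-0.0075 to 0.023), or 1.005-fold. At other regions it was 0.015 (0.0048 to 0.024), and the difference between the sets was -0.0069 (-0.025 to 0.011). Because each library was scaled by 1 constant, a uniform change across the genome would not be seen. Within the members the ratio moved up and down between density classes, and each interval held 0. It was 0.013 (-0.0097 to 0.036) with 12 to 15 neighbours, 0.019 (-0.0090 to 0.047) with 16 to 19, -0.028 (-0.070 to 0.013) with 20 to 23 and -0.00091 (-0.056 to 0.054) with 24 to 27. With 28 to 31 neighbours it was -0.019 (-0.10 to 0.065), and with 32 to 40 it was 0.036 (-0.072 to 0.14). Among other regions it was lower in each denser class: 0.085 (0.047 to 0.12) with no neighbour, 0.020 (0.0012 to 0.038) with 1 to 3, 0.015 (-0.0011 to 0.032) with 4 to 7 and -0.0064 (-0.024 to 0.011) with 8 to 11. By chromosome, members ranged from -0.066 (-0.12 to -0.0073) on chromosome 7 to 0.089 (0.011 to 0.17) on chromosome 3. These are the extremes of 19 chromosomes, picked by ratio, and overlapping windows make their intervals too narrow. No difference between the populations is read from them.

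Single members past 2-fold were slightly more frequent than among all regions, and members also had fewer reads. Of the 9157 members with a read in both libraries, 585 (6.39%) were at least 2-fold higher in Em+ cells, against 5.39% of all autosomal regions, and 601 (6.56%) at least 2-fold lower, against 5.46%. The 430 members without a read in both were not counted. Among regions with 8 to 11 reads over both libraries, 7.75% of members and 7.95% of other regions were 2-fold higher, and 9.59% and 9.74% were 2-fold lower. With 2 to 7 reads, 8.40% of either set were higher, and 5.44% and 5.84% were lower. With 12 to 19 reads the shares were 5.75% and 5.70% higher, and 6.99% and 6.07% lower. With 20 to 39 reads, 3.85% of members and 3.39% of other regions were higher, and 4.60% and 3.20% were lower. At 40 reads or more, 1.36% of members (4 of 294) and 18 of 1894 other regions were higher, and 0.680% and 1.00% were lower. These shares were not tested against each other. Pearson's r between the libraries was 0.645 at members (9587 regions, log2 of reads plus 1) and 0.764 at other regions (13752 regions). Squared deviations of single regions from the pooled ratio of their set averaged 1.07 times the counting variance at members and 1.10 times at other regions. Why r was lower at members, which had fewer reads, was not tested.

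The members with the most extreme ratios among those above the median signal had few reads. They were ranked by the log2 ratio with the pseudocount, which was 1.86 at the highest and -2.16 at the lowest. The folds given here are without it. The highest, on chromosome 8 (73143109 to 73143609), had 13 reads in Em+ and 3 in Em- cells, or 5.38-fold (1.48 to 29.5). Members on chromosome 8 (86670709 to 86672083 and 37595624 to 37597179) each had 15 against 4 reads, or 4.66-fold (1.48 to 19.3). Members on chromosome 4 (10979249 to 10981209) and chromosome 9 (8017650 to 8017915) each had 12 against 3. The lowest, on chromosome 7 (28931844 to 28933458), had 2 reads in Em+ and 18 in Em- cells, or 0.138-fold (0.0155 to 0.577). The other 4 lowest lay on chromosomes 2, 3, 4 and 5, with 2 or 3 reads against 15 to 20. Their intervals span more than an order of magnitude, so the order within these lists is not resolved. All of these members passed the signal filter through the library where they were high, and they were then picked by ratio. No difference between the populations is therefore read from intervals that leave out 1.

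Summing over a neighbourhood gave more reads and smaller differences. Across the 340 neighbourhoods of at least 10 members the pooled log2 ratio had a median of 0.0067 and quartiles of -0.13 and 0.15, and none reached 2-fold in either direction. The highest was on chromosome 14 (8672472 to 9007718, 15 members), with 158 reads against 129, or 1.52-fold (1.20 to 1.94). Next came neighbourhoods on chromosome 2 (24804797 to 25221489), with 106 against 87 reads or 1.51-fold (1.13 to 2.03), and on chromosomes 18, 4 and 9 with 1.43-fold to 1.49-fold. The lowest was on chromosome 7 (104683757 to 104906830, 10 members), with 36 reads in Em+ and 75 in Em- cells, or 0.596-fold (0.389 to 0.899). A second neighbourhood of chromosome 7 (140043439 to 140295545) had 60 against 114, or 0.654 (0.470 to 0.902), and those on chromosomes 4, 15 and 6 had 0.680 to 0.719. The interval lay above the pooled ratio of all members in 17 neighbourhoods and below it in 13. Among 340 intervals, some would lie to either side by counting error alone. Reads in overlapping windows were counted more than once, which makes these intervals too narrow. The neighbourhoods named here were the extremes of the 340, picked by ratio. No difference between the populations is therefore read from their intervals or from these counts.

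The spread of these ratios was smaller over members at least 10 kb apart, whose windows do not overlap. Squared deviations of the 340 neighbourhoods from the pooled ratio averaged 1.47 times the counting variance with all their members. The value was 1.10 with only members at least 10 kb apart, of which there were 6558 over all neighbourhoods. Spacing removes repeated reads but also leaves fewer reads, and the cause of the fall was not tested. For single members the value was 1.07, against 1.10 for other regions. Mean reads per region correlated between the libraries across the 340 neighbourhoods, with Pearson's r of 0.933 on the log2 scale and Spearman's rho of 0.907, and r was 0.916 without the 2 highest. Points share libraries and chromosomes, so these are descriptions. The chromosome 4 neighbourhood with the highest level had equal scaled levels in both populations, with a pooled log2 ratio of 0.0021 (-0.085 to 0.089).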

How the data were processed

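The deposited table gives a signal in 50 bins of 200 bp around each region for each library, per the file headers. The authors scaled this signal. In each library 100% of the values above 0 were whole multiples of 1 step (within 0.02), and dividing by the step recovered whole reads. The build is mm9, per the submitters' processing notes. Not given in the sources used here are the aligner, how duplicates were handled, the scaling total and where the regions come from. Regions carry no gene names, the gene table at hand describes another build, and genes were not analysed here.

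Chromosomes X and Y were left out by the rule. Ratios between populations are log2 of scaled reads, for single regions with a pseudocount at the 5th percentile of nonzero region signals (0.036 per bin). Folds printed for single members, and their intervals, have no pseudocount. Ratios of reads have exact (Clopper-Pearson) 95% binomial intervals. Centre-to-flank ratios and differences of ratios have normal intervals on the log scale. Neighbour counts were checked on random positions. The intervals of single-region ratios and of a difference of pooled ratios were checked on simulated reads. Those reads were drawn independently for each region, so the check did not cover overlapping windows. Intervals of neighbourhoods and of centre-to-flank ratios were not checked. Positions named were the 10 neighbourhoods with the most members, the 5 highest and 5 lowest by level and by ratio among those of at least 10 members, and 5 members each with the most neighbours, the most reads, and the highest and lowest ratio above the median signal. The members, the rules and the alternatives were chosen with earlier results of these data known. Scripts ran under Python 3.11.15 with scipy 1.17.1, numpy 2.4.6, matplotlib 3.10.9 and pandas 2.3.3.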

Additional observations from a re-analysis of the deposited data

How the results depend on the processing

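The median log2 level of members minus other regions, -0.68 in Em+ and -0.70 in Em- cells, stayed below 0 under all alternatives except 1. It was -0.61 and -0.74 with 8 neighbours as the threshold, -0.54 and -0.58 with 16, and -0.54 and -0.58 with 24 neighbours within 500 kb. It was -0.81 in Em- cells over regions at least 10 kb apart, -0.81 in both libraries in the outer 40 bins, and -0.53 and -0.54 once the pseudocount was the 25th percentile. Within chromosomes it was -0.54 and -0.64, and within width quartiles -0.67 in Em- cells. In the central 10 bins, where the median region has 0 to 1 read, it was -2.04 and 0, values that small whole numbers set. The difference of pooled log2 ratios, -0.0069 (-0.025 to 0.011) over all bins, was -0.061 (-0.11 to -0.013) in the central bins and -0.022 (-0.039 to -0.0058) with 8 neighbours, and both of these intervals left out 0. Counts of members at least 2-fold higher and lower, 585 and 601, were 367 and 361 with 16 neighbours (fewer members), 138 and 170 with the pseudocount at the 25th percentile and 334 and 372 above the lower quartile of signal. With the pseudocount at the 1st percentile the counts were 833 and 904, and in the central bins they were 639 and 361. In the central bins a member was counted only if both libraries had a read in those bins. The cause of these shifts was not tested. Shares of all autosomal regions were not taken under these settings, so no result about members is read from these counts. The centre-to-flank ratios, 0.679 and 0.671, were 0.660 and 0.654 without regions over 100 reads and 0.617 and 0.621 with a trimmed mean. In Em- cells they were 0.653 with 8 and 0.685 with 16 neighbours. In the central bins 9 of 29 named neighbourhoods changed sign. For 7 of them the interval over all bins held 0, and the other 2, on chromosome 4 from 140609010 and from 129984578, went to -0.10 and 0.31. Of 10 named members with reads in both libraries there, 4 changed sign, among them the one on chromosome 3 from 88634903, which went to 0.23, the value that equal reads give there. In the outer bins 1 named neighbourhood changed sign, and so did 1 with each library scaled to its total reads over all windows of the table. For each of these neighbourhoods the interval over all bins held 0. Such totals count reads of overlapping windows more than once and are not sequencing depths. Leaving out the chromosome 4 and chromosome 11 neighbourhoods, an alternative added after seeing the data, kept all 8 results within their intervals or, for counts, within 1.5 times. No paired analysis was possible because neither population has a replicate, and no library could be left out. At 5 and 6 reads for the median member, depth leaves most 2-fold differences of single members within counting error.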

Other observations

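The row order of the deposited table, which no source used here explains, placed few members at its start. Of the members, 2.88% were among the first 1197 regions of the table, against 6.54% of the other regions. The most-read member of the chromosome 8 neighbourhood from 86090374 to 88227851, one of the 10 with the most members, had its reads at its centre. That region (86280799 to 86281027) held 91 reads in Em+ and 85 in Em- cells, of which 78 and 75 lay in the central 10 bins. The centre-to-flank ratio of the neighbourhood over both libraries was 1.19 with it and 0.761 without it, and it was singled out after its values were seen.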
